A study of Homo sapiens with 9 samples.

Results

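MDA-MB-231 and MDA-MB-436 are 2 established human breast cancer cell lines that are classed as triple-negative, which means that they lack the oestrogen and progesterone receptors and amplification of ERBB2. The comparison takes the 3 RNA sequencing libraries labelled MDA-MB-231 against the 3 labelled MDA-MB-436, 6 of the 9 libraries of the series. In each line 1 library is labelled as untreated control, 1 as treated with GSK343, a small-molecule inhibitor of the histone methyltransferase EZH2, and 1 as shEZH2, a short hairpin RNA against the EZH2 transcript. The column headers call the control libraries shControl, and cells of both lines were grown in DMEM with fetal bovine serum. Libraries were paired between the lines by treatment label, so that the treatment is shared by both sides and the contrast is the cell line. Each line is a single culture lineage with 1 library per label, and nothing in the labels says that the 3 libraries came from separate cultures. The p-values therefore measure the spread between these 6 libraries and not between tumours.

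The pathways that separate breast cancer lines are well studied. CDKN2A encodes p16INK4A, which restrains the kinases CDK4 and CDK6, whose target is the retinoblastoma protein encoded by RB1. Cells that have moved from an epithelial to a mesenchymal state lose E-cadherin and keratins and gain vimentin, N-cadherin and transcription factors of the SNAI, ZEB and TWIST families. HOX genes and other homeobox factors hold the positional memory of a cell, and the MHC class II proteins, which present peptides to helper T cells, depend on the transactivator CIITA.

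Levels are given as RPKM, reads scaled to gene length and library size, and 3 values of a line are always in the order control, GSK343 label, shEZH2 label. Of 58037 genes in the table, 12452 reached 1 RPKM in 3 or more of the 6 libraries and were tested with limma on log2(RPKM + 1), with line and treatment label as terms. A difference is MDA-MB-231 minus MDA-MB-436 on that log2 scale, followed by the half-width of its 95% confidence interval, and a gene is called where its Benjamini-Hochberg adjusted p is under 0.05. The added 1 makes the scale understate differences of low genes. The libraries hold between 14757000 and 18283000 reads.

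Before the results, 2 features of the libraries bear on how they are read. EZH2 itself was at 27.4, 5.77 and 16.4 RPKM in MDA-MB-231 and at 38.9, 7.53 and 37.4 RPKM in MDA-MB-436. In both lines the lowest level was in the library labelled GSK343, which inhibits the enzyme, and not in the library labelled shEZH2, which goes against the labels, so treatments are named here only as labels. Between the lines EZH2 differed by -0.66 ± 0.40 (adjusted p = 0.011), but the ranges overlap, and the adjusted p was 0.434 without the treatment label as a term, 0.0787 with no filter on low values, and 0.0801 or 0.0827 when the shEZH2-labelled MDA-MB-231 or MDA-MB-436 library was left out. The libraries of MDA-MB-436 labelled GSK343 and shEZH2 were also nearly alike. Only 40 genes differed 2-fold or more between them, against 191 to 473 between other libraries of a line and 3141 to 3598 between libraries of different lines. Their counts still differed by more than counting noise (median chi-square per gene 1.47, where counting alone gives 0.455) and EZH2 was far apart, so both were kept. With the GSK343- and shEZH2-labelled libraries of each line averaged, 7039 genes were called in place of 8034.

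Of the genes tested, 8034 (64.5%) were called. MDA-MB-231 had the higher level for 3612 of them (29.0% of genes tested), and 4422 (35.5%) were higher in MDA-MB-436. With at least a 4-fold difference as well, 397 genes (3.19%) were higher in each line. The median difference of all genes tested was -0.086. The direction was the same under all 3 labels for 9802 of the genes tested, and 1031 genes were at least 2-fold higher in MDA-MB-231 under every label, against 1150 in MDA-MB-436. Only 11 genes were at least 2-fold apart in opposite directions under different labels, and most of them are short RNA genes. Because most genes differ, a call by itself says little about a gene, and the shares of gene groups given below are to be read against 29.0% higher in MDA-MB-231 and 35.5% higher in MDA-MB-436. Of the genes tested, 595 passed the filter through MDA-MB-231 alone and 863 through MDA-MB-436 alone, so the filter set their direction.

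**Figure D1:**
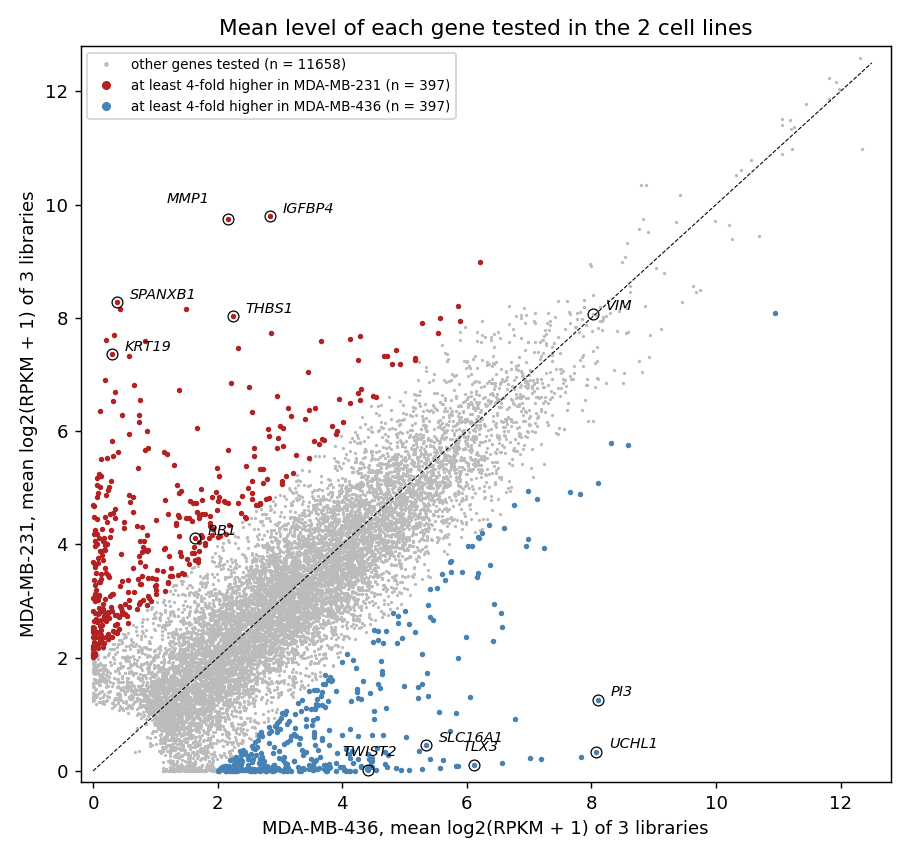
Each point is 1 of the 12452 genes tested, with its mean log2(RPKM + 1) over the 3 MDA-MB-436 libraries on the x axis and over the 3 MDA-MB-231 libraries on the y axis, and the dashed line marks equal levels. The 397 genes called at least 4-fold higher in MDA-MB-231 are red and the 397 in MDA-MB-436 blue, VIM lies on the line, and many coloured genes lie at or near 0 in 1 line.

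The 12 largest differences toward MDA-MB-231 included secreted and cell surface proteins. CD74, the invariant chain that escorts MHC class II molecules, was at 232, 246 and 397 RPKM in MDA-MB-231 and at 0.430, 0.341 and 0.300 in MDA-MB-436 (difference 7.71 ± 0.43, adjusted p = 3.55e-07). MMP1, interstitial collagenase, was at 281, 2585 and 861 RPKM against 3.81, 3.06 and 3.56 (7.58 ± 1.24, adjusted p = 2.43e-05). The lines did not overlap for either gene, but the MMP1 level averaged 1243 ± 1198 RPKM (SD, n = 3) in MDA-MB-231. KISS1, the precursor of the kisspeptins, was steady at 213, 211 and 192 RPKM against 0.336, 0.511 and 0, and SRGN, the proteoglycan serglycin, was at 159, 206 and 223 against 0.244, 0.0990 and 0.138. KRT19, a keratin of simple epithelia, was at 151, 141 and 201 RPKM against 0.383, 0.207 and 0.120 (7.05 ± 0.38, adjusted p = 3.19e-07). IGFBP4 and IGFBP7, which bind insulin-like growth factors, averaged 940 ± 392 and 163 ± 36.4 RPKM (SD, n = 3) in MDA-MB-231 against 6.40 ± 2.43 and 0.511 ± 0.241. The others were SPANXB1 (a sperm protein gene), MMP14 (a membrane-bound matrix metalloproteinase), CST1 (a cystatin), ANKRD1 (an ankyrin repeat protein) and TIMP3 (an inhibitor of metalloproteinases), with differences of 6.34 to 7.89. SPANXB1 and CST1 belong to families of near-identical copies, so how reads were shared among copies is uncertain.

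Toward MDA-MB-436 the largest difference was that of UCHL1, a ubiquitin hydrolase best known from neurons. It was at 0.235, 0.386 and 0.168 RPKM in MDA-MB-231 and at 252, 282 and 275 in MDA-MB-436 (-7.75 ± 0.27, adjusted p = 1.71e-07), and these correspond to 9, 13 and 7 reads against 9652, 10658 and 11187. MAGEA4, a cancer-testis antigen, was at 0.0968, 0.308 and 0.178 RPKM against 291, 206 and 198 (-7.59 ± 0.39). The spread within MDA-MB-436 was small beside the distance between the lines for both. ANPEP, aminopeptidase N, was at 0.135, 0.237 and 0.112 RPKM against 223, 114 and 121, and PI3, the elastase inhibitor elafin, at 0.517, 2.11 and 1.90 against 209, 342 and 291. TLX3, a homeobox factor of the developing nervous system, averaged 0.0709 ± 0.0565 RPKM against 68.1 ± 5.59, and GAL, the neuropeptide galanin, 0.982 ± 0.761 against 110 ± 21.4. The remaining genes of this group were C1QTNF4, FBLN2 (a fibulin of the extracellular matrix), RENBP, BHMT2 (a homocysteine methyltransferase), CDKN2A and FKBP10 (a collagen chaperone), with differences of -6.78 to -5.43. All 24 genes were called in the same direction in every alternative analysis.

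**Figure D2:**
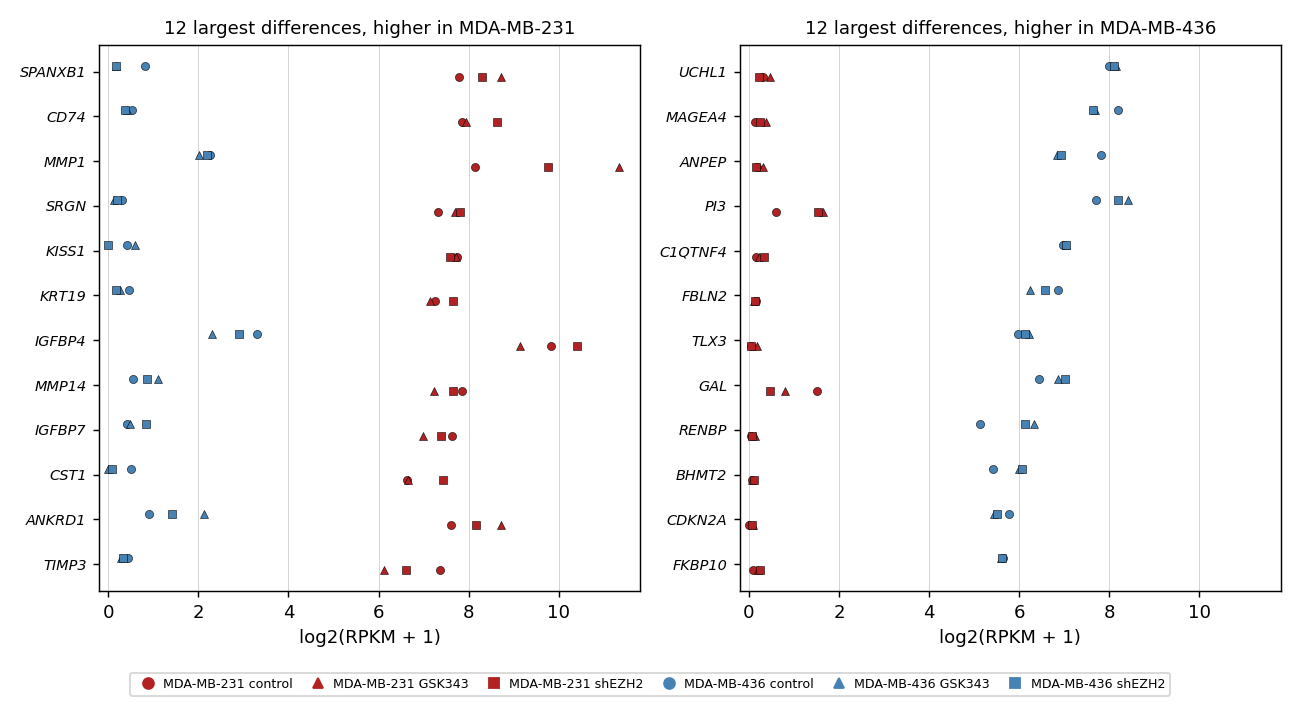
Each gene has 6 points on a log2(RPKM + 1) axis, red for MDA-MB-231 and blue for MDA-MB-436, with circles for control, triangles for the GSK343 label and squares for the shEZH2 label. In the left panel all red points lie to the right of all blue points, in the right panel the reverse, and the widest spread within a line is that of MMP1 in MDA-MB-231.

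In both directions many of these genes were close to 0 in the other line. With detection set at 1 RPKM or more in all 3 libraries of a line and under 0.1 RPKM in all 3 of the other, 127 genes (88 protein coding) were detected in MDA-MB-231 only and 265 (217 protein coding) in MDA-MB-436 only. These counts are descriptions without a test and depend on the limit: with 0.05 RPKM as the limit they were 82 and 194, with 0.2 RPKM 199 and 347, and with 5 RPKM asked of the detecting line 30 and 58. The numbers stayed larger in MDA-MB-436 at each of these limits. The highest protein-coding genes of MDA-MB-231 only were UCP2, a mitochondrial carrier (43.6, 28.8 and 34.6 RPKM against at most 0.0560) and SLC17A9, a vesicular nucleotide transporter (27.8, 35.3 and 33.5 against at most 0.0540). Further down was TLR4, the receptor for endotoxin (7.42, 16.7 and 15.7 against at most 0.0919). MGMT, the enzyme that removes alkyl groups from guanine, belonged to MDA-MB-436 only, with 0, 0.0381 and 0 RPKM in MDA-MB-231 against 19.1, 14.2 and 13.7. SLFN11, a factor that blocks stalled replication forks, was at 0.0798, 0.0906 and 0.0914 RPKM against 10.6, 15.1 and 13.2. These correspond to 0 to 2 reads against 838 to 1143 for MGMT, and to 8 to 10 against 1060 to 1500 for SLFN11.

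The genes of the MDA-MB-231-only group differed in sequence at their 5′ ends, a property the choice of genes did not use. CG dinucleotides, the sites of DNA methylation in human cells, were counted in the first 250 bases of the longest transcript of each gene in GENCODE release 29. The median was 18 over all genes tested with a transcript (12264 of 12452), 6 in the MDA-MB-231-only genes (123 of 127 with a transcript) and 20.5 in the MDA-MB-436-only genes (262 of 265). At least 10 CG were present in 74.5%, 33.3% and 74.4% of these groups. Among genes called at least 4-fold apart the shares were 59.6% toward MDA-MB-231 and 75.6% toward MDA-MB-436, beside 74.8% in genes not called. All gene types were counted together, and 88 of the 127 and 217 of the 265 genes are protein coding. The part of gene type in the CG counts was not tested. No test was made between the groups, and DNA methylation was not measured here. The RefSeq promoter table used for the sequences holds 69 of the 127 and 176 of the 265 genes, fewer than 80%, so a comparison of promoters between the groups would be void and none was made. The 250 bases before the RefSeq start (GRCh38.p14) are shown for 2 protein-coding genes of each group. These genes have the highest level among those in that table once a chromosome named under the data processing is left out. They were chosen by level and not by sequence, but that chromosome was left out after values were seen. Genes with a higher level may therefore have been passed over. The printed bases run 5′ to 3′ in the direction of the gene, with CG in capitals. UCP2 has 23 CG (chr11:73983203-73983452, minus strand) and LRRC61, a leucine-rich repeat protein, 29 (chr7:150323105-150323354, plus strand), both from the MDA-MB-231-only group, while RENBP has 15 (chrX:153944644-153944893, minus strand) and BHMT2 34 (chr5:79069517-79069766, plus strand), both from the MDA-MB-436-only group. Over all 35116 promoters of the table the median was 11 CG, and 52.2% held at least 10. All 4 thus lie above that median. The printed bases lie before the start, while the group counts above are of the first bases of transcripts. The sequences therefore cannot show whether UCP2 and LRRC61 share the low CG counts of the MDA-MB-231-only group.
UCP2: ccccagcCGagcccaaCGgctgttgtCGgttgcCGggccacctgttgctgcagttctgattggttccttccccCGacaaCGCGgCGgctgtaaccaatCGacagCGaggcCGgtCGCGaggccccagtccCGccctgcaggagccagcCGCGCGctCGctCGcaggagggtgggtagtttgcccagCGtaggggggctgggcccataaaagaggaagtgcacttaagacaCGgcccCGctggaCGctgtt
LRRC61: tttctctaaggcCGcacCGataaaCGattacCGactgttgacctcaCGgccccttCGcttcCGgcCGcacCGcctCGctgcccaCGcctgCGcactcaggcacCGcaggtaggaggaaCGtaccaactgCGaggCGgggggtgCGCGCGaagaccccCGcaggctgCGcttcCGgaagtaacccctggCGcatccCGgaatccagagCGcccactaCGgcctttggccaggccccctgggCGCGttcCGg
RENBP: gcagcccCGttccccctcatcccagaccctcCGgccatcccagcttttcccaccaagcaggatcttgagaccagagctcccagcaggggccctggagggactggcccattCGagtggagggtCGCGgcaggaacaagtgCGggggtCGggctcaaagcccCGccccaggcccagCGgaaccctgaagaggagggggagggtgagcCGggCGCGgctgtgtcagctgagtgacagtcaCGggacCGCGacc
BHMT2: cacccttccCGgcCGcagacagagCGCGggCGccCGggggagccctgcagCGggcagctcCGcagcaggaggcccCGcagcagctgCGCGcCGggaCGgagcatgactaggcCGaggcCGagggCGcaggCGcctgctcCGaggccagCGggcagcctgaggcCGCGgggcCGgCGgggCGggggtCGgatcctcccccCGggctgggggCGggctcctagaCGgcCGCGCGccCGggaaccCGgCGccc

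Tumour suppressor genes gave each line a signature that can be checked against its name. MDA-MB-231 is known for a deletion on the short arm of chromosome 9 that removes CDKN2A, and MDA-MB-436 for loss of RB1. In MDA-MB-231 CDKN2A was at 0, 0.0626 and 0.0505 RPKM (0, 4 and 4 reads), and in MDA-MB-436 at 54.1, 42.5 and 44.2 (3930, 3050 and 3406 reads). CDKN2B, which encodes the related inhibitor p15INK4B, was listed at 0 in all 3 MDA-MB-231 libraries and at 1.95, 4.55 and 4.24 RPKM in MDA-MB-436. MTAP, an enzyme of methionine salvage, was at 0, 0.00464 and 0 RPKM against 3.28, 2.73 and 2.80, and KLHL9, a ubiquitin ligase adaptor, was listed at 0 against 5.79, 7.05 and 6.40. These 4 genes lie within 1 stretch, KLHL9 at chr9:21329671-21335380, MTAP at chr9:21802543-21937651, CDKN2A at chr9:21967753-21995301 and CDKN2B at chr9:22002903-22009363 (GRCh38). FOCAD, further out at chr9:20658309-20995955, was at 0.119, 0.182 and 0.191 RPKM against 3.83, 4.12 and 3.47. On the other side, next to CDKN2B, the processed pseudogene UBA52P6 (chr9:22012155-22012536) was at 0.781, 0.532 and 0.143 RPKM against 1.25, 2.85 and 1.03. Its call (-0.83, adjusted p = 0.00809) was lost with no filter on low values (0.0796) and without either line's GSK343-labelled library (0.0528 and 0.0514). Genes beyond were expressed in MDA-MB-231: MLLT3 at 2.83, 3.03 and 3.30 RPKM on one side, higher than in MDA-MB-436 (1.56 ± 0.31, adjusted p = 6.19e-05), and TUSC1 at 10.4, 5.78 and 4.90 on the other, lower than in MDA-MB-436 (-0.95 ± 0.33, adjusted p = 0.000822).

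**Figure D3:**
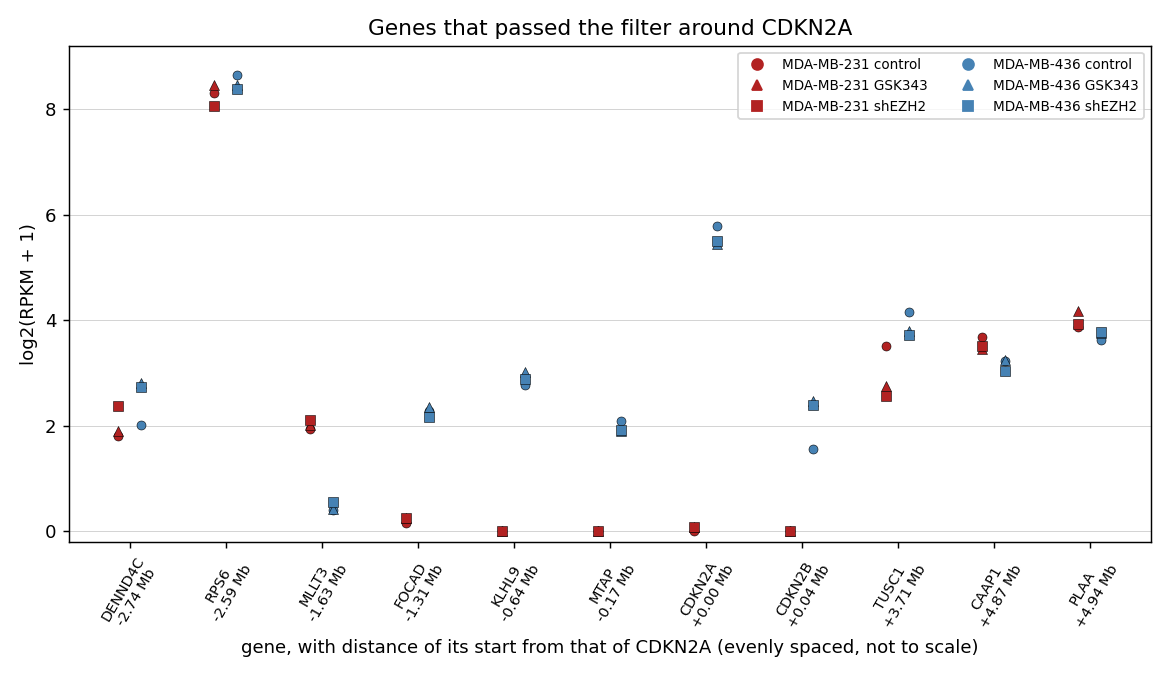
Of the genes around CDKN2A on chromosome 9 that passed the filter, 11 are drawn in order of position with the distance of each start from that of CDKN2A in Mb, with 6 points each on a log2(RPKM + 1) axis. The processed pseudogene UBA52P6, next to CDKN2B, is not drawn. From FOCAD to CDKN2B the 3 red MDA-MB-231 points lie at or near 0, below all blue MDA-MB-436 points, while RPS6, CAAP1 and PLAA lie well above 0 in both lines.

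On the MDA-MB-436 side RB1 was at 17.0, 14.5 and 17.4 RPKM in MDA-MB-231 and at 1.41, 2.78 and 2.33 in MDA-MB-436 (2.47 ± 0.42, adjusted p = 2.86e-05). Its neighbours on chromosome 13 did not share this difference: ITM2B next to it differed by 0.55 ± 0.32 (adjusted p = 0.00878, but 0.0904 or 0.087 with the shEZH2-labelled MDA-MB-231 or MDA-MB-436 library left out), and MED4 by -0.35 (adjusted p = 0.0386, but 0.0741 to 0.172 with any 1 library left out). NF2, which encodes merlin, was at 2.36, 2.0 and 1.99 RPKM against 0.0332, 0.126 and 0.0940, or 212 to 283 reads against 4 to 15. The genes on both sides of NF2, NIPSNAP1 and ZMAT5, were at 26.7 to 31.4 and 2.96 to 3.51 RPKM in MDA-MB-436. BRCA1, in which MDA-MB-436 is known to carry a mutation, was at 3.87, 4.68 and 5.87 RPKM against 3.39, 3.92 and 4.29 and was not called (0.24 ± 0.31, adjusted p = 0.141). NF1 was higher in MDA-MB-436, by -0.78.

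Of 23 listed genes of the G1 phase and RB pathway, 19 were called, 10 higher in MDA-MB-231 (43.5%, beside 29.0% of all genes tested) and 9 higher in MDA-MB-436 (39.1%, near the 35.5% of all genes). The filter was passed through MDA-MB-436 alone by 3 of the 23, which sets the direction of these, and 2 were detected in MDA-MB-436 only. Toward MDA-MB-231 were the cyclins CCND1 (261, 127 and 183 RPKM against 57.3, 38.3 and 48.1) and CCND3 (47.9, 61.3 and 65.3 against 16.9, 18.5 and 19), the kinase CDK6 (difference 1.36) and the inhibitor CDKN1A (1.83). Toward MDA-MB-436 were CCNE1, the cyclin of CDK2 (6.48, 5.13 and 4.5 RPKM against 17.7, 13.8 and 14.6), the inhibitor CDKN1B (-1.16) and the factors E2F1 (-0.43, adjusted p = 0.0168, but 0.0815 to 0.0928 without either line's GSK343- or shEZH2-labelled library) and E2F2 (-1.59). Cyclin D and cyclin E genes thus lay on opposite sides, except CCNE2, which was not called (0.44, adjusted p = 0.172, but 0.0477 or 0.0478 without the GSK343-labelled library of one line or the other). MYC was at 92.8, 102 and 69.4 RPKM against 85.3, 76.8 and 74.7 and did not pass the test (adjusted p = 0.389).

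The mesenchymal markers were divided between the lines rather than present in 1 of them. VIM, vimentin, was at 306, 299 and 212 RPKM in MDA-MB-231 and at 341, 240 and 214 in MDA-MB-436, with overlapping ranges and a difference of 0.05 ± 0.36 (adjusted p = 0.786). Of 19 listed genes 13 were tested, 5 higher in MDA-MB-231 (38.5%, beside 29.0% of all genes tested) and 7 higher in MDA-MB-436 (53.8%, beside 35.5%). The filter was passed through MDA-MB-436 alone by 5 of the 13 and through MDA-MB-231 alone by 1, which sets the direction of these. TWIST1 and TWIST2, basic helix-loop-helix factors of mesoderm, were detected in MDA-MB-436 only, at 25.6, 29.4 and 34.9 RPKM and at 18.7, 22.5 and 19.7, against at most 1 read in any MDA-MB-231 library. CDH2, N-cadherin, was at 0.241, 2.18 and 1.52 RPKM against 28.9, 23.1 and 23.3 (-3.59 ± 0.68, adjusted p = 4.79e-05), and the homeobox gene PRRX1, the forkhead gene FOXC2 and the zinc finger genes SNAI1 and ZEB2 were also higher in MDA-MB-436 (-1.66 to -1.32). MDA-MB-231 had more SNAI2 (26.7, 29 and 13.7 RPKM against 1.38, 3.20 and 3.15), CDH11, a cadherin of osteoblasts (9.94, 8.40 and 15.8 against 0.494, 0.514 and 0.655), FN1, fibronectin (33.3, 44.1 and 66.4 against 3.52, 5.69 and 6.11), S100A4 (222, 156 and 245 against 21.6, 15.0 and 19.5) and ZEB1 (0.92). SPARC, a marker of many mesenchymal cells, had 18 to 29 reads in MDA-MB-231 and 9 to 33 in MDA-MB-436 and was not tested.

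Epithelial genes leaned toward MDA-MB-231. Of 24 listed, 15 were tested, and 10 of these were higher in MDA-MB-231 (66.7%) and 2 in MDA-MB-436 (13.3%), where 29.0% and 35.5% of all genes tested were. The filter was passed through MDA-MB-231 alone by 4 of the 15, which sets the direction of these, and through MDA-MB-436 alone by 0. CDH1, E-cadherin, was close to absent in both, with 6, 18 and 50 reads in MDA-MB-231 and 0, 8 and 5 in MDA-MB-436, and was not tested. KRT7 was at 64.3, 70.4 and 65.7 RPKM against 7.58, 6.53 and 6.85 (3.09 ± 0.28, adjusted p = 1.73e-06). CLDN4, a tight junction claudin, was at 18.5, 18.6 and 20.3 RPKM against 0.532, 0.603 and 0.765, and the desmosome protein DSP at 19.6, 23.2 and 28.0 against 1.87, 3.45 and 3.88. The ranges of these genes were far apart. KRT18 (91.6, 63.2 and 60.6 RPKM against 100, 48.9 and 47.7) and KRT80 were not called, though KRT18 was without the control library of either line (adjusted p = 0.0446 and 0.0424), and CLDN3 and PKP3 were higher in MDA-MB-436 (-1.29 and -0.72). The PKP3 call (adjusted p = 0.00637) was lost without the treatment label as a term (0.076) and with no filter on low values (0.0527).

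Of 20 listed luminal genes, 9 were tested. Of these, 5 were higher in MDA-MB-231 (55.6%, beside 29.0% of all genes tested) and 1 in MDA-MB-436 (11.1%, beside 35.5%). Of 16 basal and myoepithelial genes 7 were tested, 4 higher in MDA-MB-231 (57.1%) and 1 in MDA-MB-436 (14.3%). The filter was passed through MDA-MB-231 alone by 3 luminal and 2 basal genes, and through MDA-MB-436 alone by 1 and 0, which sets the direction of these. Of the basal keratins and TP63, none passed the filter except KRT17, which was not called (-0.79, adjusted p = 0.0776, but 0.00642 or 0.00667 without the control library of MDA-MB-231 or MDA-MB-436). NGFR, a nerve growth factor receptor of myoepithelial cells, was at 33.0, 31.5 and 59.3 RPKM in MDA-MB-231 against 0.230, 0.829 and 0.975 (4.62 ± 0.41, adjusted p = 1.62e-06). ESR1 and PGR did not pass the filter. SPDEF, an ETS factor of luminal and secretory epithelia, was at 24.4, 28.9 and 43 RPKM against 0.0623, 0.0631 and 0.117 (4.90 ± 0.39, adjusted p = 1.20e-06), and its fellow luminal gene AGR2 was detected in MDA-MB-231 only. GATA3 and ERBB2 were also higher in MDA-MB-231 (1.09 and 0.55). FOXA1, the luminal pioneer factor, went the other way at 0.150, 0.204 and 0.316 RPKM against 2.77, 3.31 and 3.29 (-1.75 ± 0.32). Among breast stem cell markers CD44 was alike (101, 93.6 and 127 RPKM against 118, 101 and 101, difference -0.01 ± 0.34), ALDH1A3, an aldehyde dehydrogenase, was far higher in MDA-MB-436 (1.01, 0.728 and 1.43 RPKM against 74.6, 47.9 and 48.5), and ITGA6, the alpha-6 integrin, in MDA-MB-231 (95.6, 45.0 and 69.3 against 13.1, 13.9 and 12.6).

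HOX genes were detected mostly in MDA-MB-436. Of 39 listed, 18 passed the filter, and 17 of these were higher in MDA-MB-436 (94.4%, beside 35.5% of all genes tested), with 1 the other way. The other 21 did not pass, and over all 39 the median difference was -0.60. Of the HOXA cluster, HOXA3, HOXA4, HOXA5, HOXA7 and HOXA10 were detected in MDA-MB-436 only, with levels from 1.64 to 7.07 RPKM there and at most 0.0183 in MDA-MB-231. HOXA10 had 281, 300 and 275 reads in MDA-MB-436 and 0, 1 and 0 in MDA-MB-231. The same held for HOXB13, HOXC10, HOXC13 and HOXD8. The HOXC cluster was low but present in MDA-MB-231 for HOXC6 (0.657, 1.11 and 0.680 RPKM against 5.47, 7.26 and 7.62), HOXC8 and HOXC9, and HOXB7 was at 0.781, 0.931 and 0.966 against 9.36, 11.4 and 8.57. HOXB9 was the exception at 15.2, 29 and 24.2 RPKM in MDA-MB-231 against 0.923, 3.41 and 3.05 (2.83 ± 0.32, adjusted p = 5.05e-06). Of the 18, 16 passed the filter through MDA-MB-436 alone, so their direction is set by it. Antisense genes lie among the HOX genes, and the sources used here do not give the strand setting of the counting, so reads of both strands cannot be told apart.

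**Figure D4:**
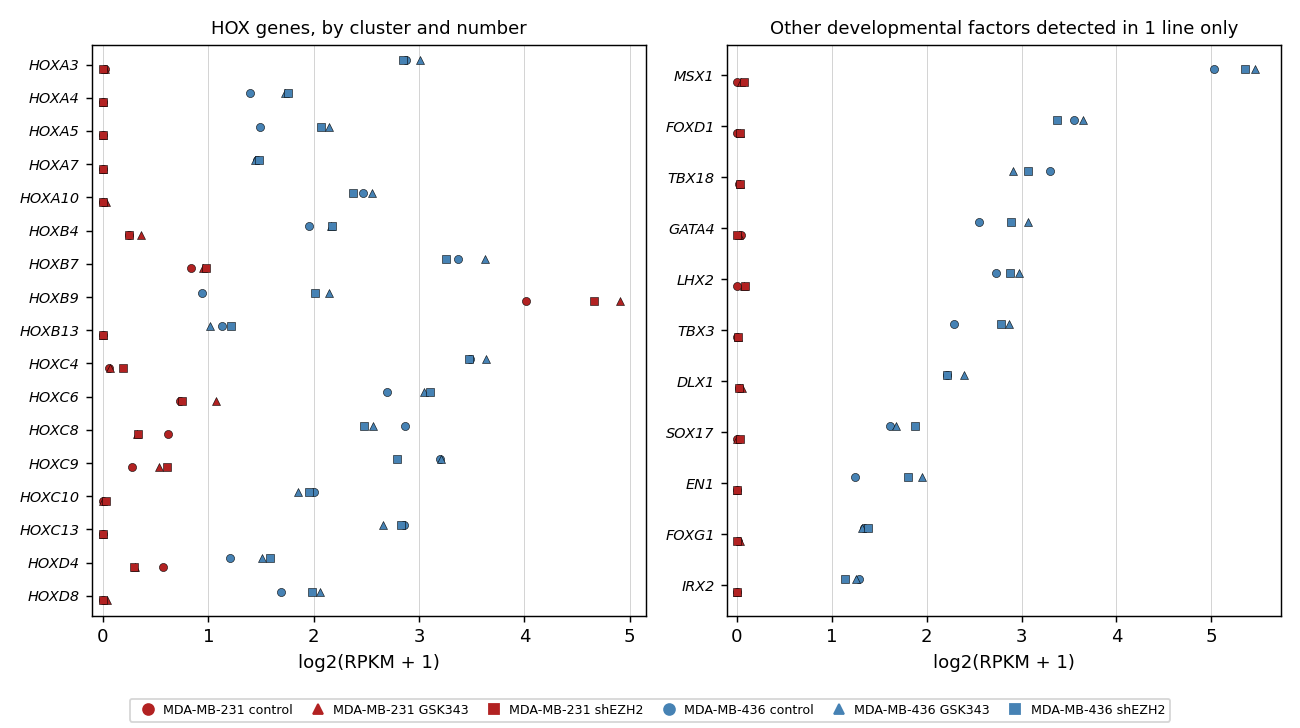
The left panel shows 17 of the 18 HOX genes that passed the filter, ordered by cluster and number, and the right panel the 11 other developmental transcription factors that were detected in 1 line only, each with 6 points on a log2(RPKM + 1) axis (red MDA-MB-231, blue MDA-MB-436; circles control, triangles GSK343 label, squares shEZH2 label). Red points lie at or near 0 for most genes, and HOXB9 is the only gene in either panel with red to the right of blue.

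Of 39 other developmental transcription factors tested, 21 were higher in MDA-MB-436 (53.8%, beside 35.5% of all genes tested) and 10 lower there (25.6%, beside 29.0%). The filter was passed through MDA-MB-436 alone by 13 of them and through MDA-MB-231 alone by 2, which sets the direction of these. The 11 factors detected in 1 line only belonged to MDA-MB-436, where 265 of all genes did against 127 in MDA-MB-231, and they included MSX1 (at most 0.0516 RPKM against 31.6, 42.9 and 39.8), a homeobox factor of craniofacial mesenchyme, FOXD1 (at most 0.0258 against 10.7, 11.5 and 9.36), the T-box factors TBX3 and TBX18, GATA4 and LHX2. NKX2-5, a homeobox factor of the heart, was at 0.20, 0.162 and 0.131 RPKM against 40.5, 43 and 41.1 (-5.19 ± 0.29, adjusted p = 3.57e-07). Toward MDA-MB-231 the differences were smaller, led by FOXQ1 (18.2, 21.8 and 26.0 RPKM against 1.55, 3.40 and 3.38), TBX1, SIX2 and SOX9 (1.29). The Polycomb repressive complex 2, which silences many such factors, had 5 of 11 genes higher in MDA-MB-231 (45.5%) and 3 in MDA-MB-436 (27.3%). JARID2, an accessory subunit, was at 18.9, 22.9 and 19.2 RPKM against 4.92, 6.46 and 5.03 (1.72 ± 0.27), AEBP2, another, at 3.86, 2.97 and 2.64 against 8.45, 8.63 and 7.92 (-1.18 ± 0.32), and the core subunit SUZ12 was higher in MDA-MB-231 by 0.61.

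Genes of antigen presentation were mostly higher in MDA-MB-231. Of 26 genes listed, 21 were tested, with 15 higher in MDA-MB-231 (71.4%, beside 29.0% of all genes tested), 2 higher in MDA-MB-436 (9.52%, beside 35.5%) and 4 not called. The filter was passed through MDA-MB-231 alone by 9 of the 21, which sets the direction of these, and through MDA-MB-436 alone by 0. The class II genes HLA-DRA (12.87, 19.8 and 38.1 RPKM against 0.0465, 0 and 0), HLA-DRB1, HLA-DPA1 and HLA-DPB1 were detected in MDA-MB-231 only, as was CIITA, their transactivator (1.66, 2.32 and 3.64 RPKM against 0.0452, 0.0458 and 0.0658). Within MDA-MB-231 all of these were highest in the shEZH2-labelled library and lowest in the control. Class I genes were split: HLA-B (1.54) and HLA-E (1.58) were higher in MDA-MB-231, and HLA-C (10.3, 12.7 and 18.0 RPKM against 37.4, 53.7 and 63.3) and B2M, the shared light chain (-1.06), were higher in MDA-MB-436. HLA genes are highly polymorphic near-copies, so how reads were assigned among them is uncertain. Immune cells carry class II genes too, so markers of other cell types are given beside them. Over the 16 listed markers of blood, endothelial, melanocytic, neural and hepatic cells, 12 were under 1 RPKM in every library, and the summed level was 8.24, 9.37 and 21.7 RPKM in MDA-MB-231 and 7.09, 8.04 and 8.97 in MDA-MB-436. The sum was highest in the shEZH2-labelled MDA-MB-231 library, as the class II genes were. CD14, a coreceptor for endotoxin on monocytes, was at 5.79, 5.82 and 12.47 RPKM against 5.75, 5.83 and 6.91 and was not called (0.26, adjusted p = 0.239), and PMEL, a melanosome protein, was at 0.612, 2.03 and 6.03 against 0.0611, 0.201 and 0.317 and was not tested. PTPRC, the pan-leukocyte antigen, was at 0.0499, 0.105 and 0.203 RPKM in MDA-MB-231 and at most 0.0289 in MDA-MB-436, CD3E was listed at 0 in MDA-MB-231, and the leukocyte integrin ITGB2 was at 5.28, 4.66 and 8.11 RPKM against 0.0877, 0.0533 and 0.0248. The part of such cells in the class II levels was not tested.

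Inflammatory signals leaned to MDA-MB-436. Of 27 cytokine and chemokine genes tested, 15 were higher in MDA-MB-436 (55.6%, beside 35.5% of all genes tested), 6 in MDA-MB-231 (22.2%, beside 29.0%) and 6 were not called. The filter was passed through MDA-MB-436 alone by 4 of the 27 and through MDA-MB-231 alone by 1, which sets the direction of these. IL1A was at 4.07, 37.6 and 18.4 RPKM in MDA-MB-231 against 118, 129 and 122 in MDA-MB-436 (-2.99, adjusted p = 0.000816), and IL1B at 5.15, 75.1 and 59.6 against 131, 250 and 245. CXCL2, a neutrophil chemokine, was at 5.93, 36.2 and 18.3 RPKM against 62.7, 181 and 172, and IL6 at 13.3, 59.3 and 48.4 against 44.1, 150 and 157. In both lines most of these were lowest in the control library, and the IL6 ranges overlap across labels although each pair differs in the same direction, and the IL6 call (-1.55, adjusted p = 4.8e-05) was lost without the treatment label as a term (0.066). IL6R, the receptor subunit for IL6, was at 0.157, 0.420 and 0.203 RPKM against 7.09, 12.2 and 10.4 (-3.09 ± 0.35). The genes higher in MDA-MB-231 included IL11, a relative of IL6 (48.3, 94.1 and 96.0 RPKM against 4.64, 10.1 and 10.8), CSF2 and the chemokine receptor CXCR4 (13.4, 29.5 and 21.2 against 0.804, 2.61 and 3.21). CXCL1 changed sides with the label, at 33.5, 434 and 302 RPKM against 108, 203 and 202 (0.01, adjusted p = 0.993), and without the control library of MDA-MB-231 or of MDA-MB-436 it was called higher in MDA-MB-231 by 0.83 (adjusted p = 0.00318 and 0.00285). EGR1, an immediate early gene, changed sides too, at 11.6, 22.2 and 9.57 RPKM against 4.42, 54.5 and 43.9 (adjusted p = 0.269, but 0.000108 or 0.000122 without the control library of MDA-MB-231 or MDA-MB-436).

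Interferon-stimulated genes were called in both directions, with 12 of 26 tested higher in MDA-MB-231 (46.2%, beside 29.0% of all genes tested), 6 higher in the other line (23.1%, beside 35.5%) and 8 not called. The filter was passed through MDA-MB-231 alone by 4 of the 26 and through MDA-MB-436 alone by 1, which sets the direction of these. IFITM2 and IFITM1, which block viral entry, were at 36.7, 53.1 and 58.3 RPKM against 0.193, 0.430 and 0.328 and at 11.1, 16.1 and 35.5 against 0.0552, 0.615 and 0.624. The neighbouring IFITM3 was alike in both lines (188, 217 and 240 RPKM against 256, 195 and 221, adjusted p = 0.779). These 3 genes are close copies, so how reads were shared among them is uncertain. BST2, tetherin, was at 138, 143 and 174 RPKM against 18.1, 13.8 and 23.1. CMPK2 and IFIH1 were higher in MDA-MB-436 (-1.62 and -1.43).

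Enzymes that cut the matrix were divided into separate sets. Among 22 proteases and inhibitors tested, 11 were higher in MDA-MB-231 (50%, beside 29.0% of all genes tested) and 8 in MDA-MB-436 (36.4%, near the 35.5% of all genes). Of the 22, 4 passed the filter through MDA-MB-231 alone and 3 through MDA-MB-436 alone, which sets the direction of these. PLAT, tissue plasminogen activator, was at 65.5, 115 and 154 RPKM against 1.29, 1.66 and 1.91 (5.35 ± 0.41), and MMP14 at 231.2, 150 and 201 against 0.467, 1.14 and 0.818. MMP2, the gelatinase that MMP14 activates, was on the other side at 0.206, 0.0824 and 0.299 RPKM against 7.0, 4.49 and 5.43 (-2.46 ± 0.35), with CTSL, cathepsin L (27.4, 38.2 and 22.5 against 148, 276 and 276). PLAU, urokinase, and TIMP1 were not called (adjusted p = 0.324 and 0.261). MMP3, stromelysin 1, was at 2.07, 194 and 12.2 RPKM in MDA-MB-231 against 0.495, 0.855 and 0.823, so its level varied widely within that line, and its call (adjusted p = 0.00944) was lost with robust moderation (0.0857) and with no filter on low values (0.108).

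Matrix proteins were likewise divided. THBS1, thrombospondin 1, was at 334, 187 and 280 RPKM in MDA-MB-231 against 8.29, 2.37 and 2.35 (5.79 ± 0.50), LAMB3, a laminin chain of epithelial basement membranes, at 218, 183 and 193 against 7.56, 22.7 and 25.1, and EFEMP1, a fibulin, at 37.5, 18.7 and 24.5 against 0.797, 0.244 and 0.539. NID1, the basement membrane linker nidogen, was at 0, 0.0578 and 0.0560 RPKM against 9.55, 11.4 and 13.4, and FBN2 (fibrillin 2), NID2, BGN (biglycan) and SPOCK1 were also at least 4-fold higher in MDA-MB-436. Collagens were even at 8 and 8 of 18 (44.4% each), with COL8A1 (31.1, 14.3 and 25.7 RPKM against 0.272, 0.257 and 0.227) and COL13A1 in MDA-MB-231 and COL16A1 (0.521, 1.07 and 1.12 against 17.0, 22.6 and 26.5), COL6A1 and COL6A2 in MDA-MB-436. Among these 18, 4 passed the filter through MDA-MB-231 alone and 1 through MDA-MB-436 alone, so their direction is set by it. Integrins, the cell's matrix receptors, leaned to MDA-MB-231 with 9 of 12 (75%, beside 29.0% of all genes tested), including ITGA3 (200, 174 and 237 RPKM against 70.0, 82.5 and 80.4), while ITGB2 of leukocytes was detected in MDA-MB-231 only and ITGA4 in MDA-MB-436 only. The filter was passed through MDA-MB-231 alone by 2 of the 12 and through MDA-MB-436 alone by 2, which sets the direction of these.

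**Figure D5:**
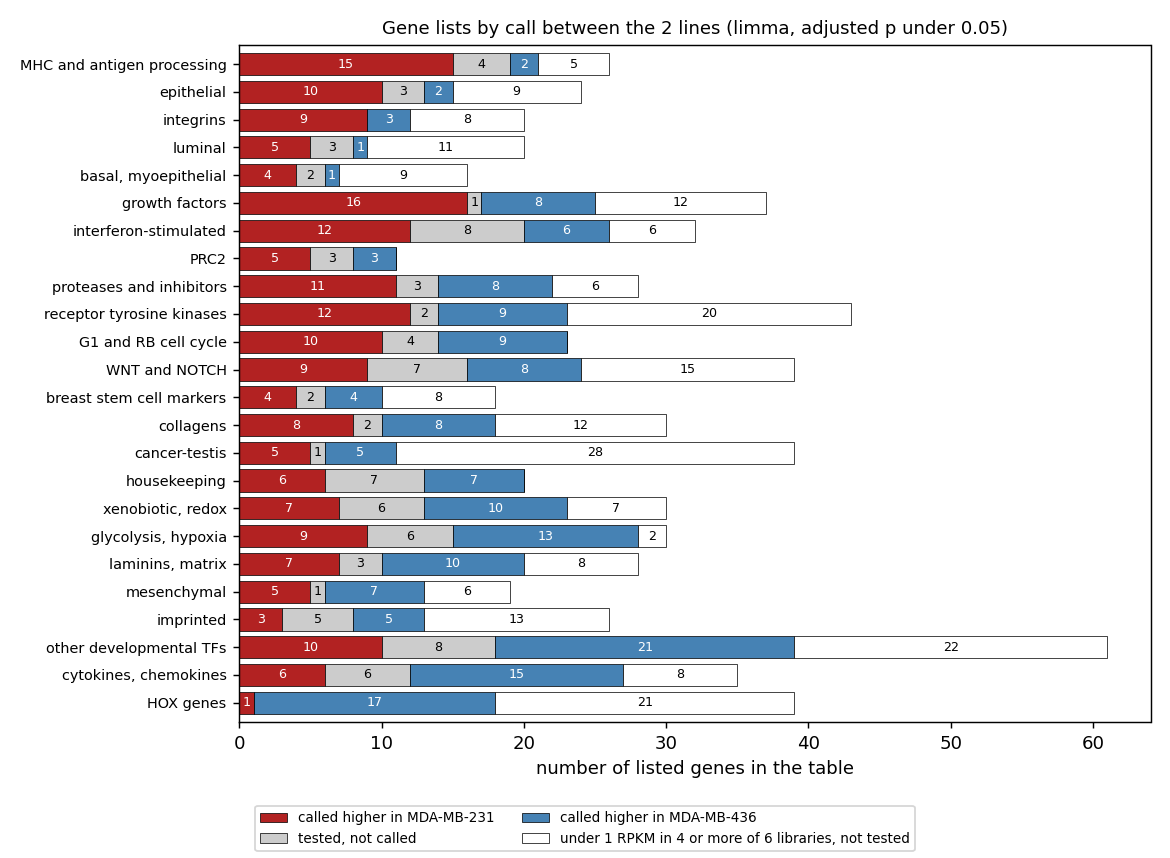
Bars count, for 24 gene lists, the members called higher in MDA-MB-231 (red), tested and not called (grey), called higher in MDA-MB-436 (blue) and under the filter (white), against the number of genes on the x axis, ordered by the balance of calls. The MHC list with 15 red and 2 blue lies at the top and the HOX list with 1 red and 17 blue at the bottom, and housekeeping genes, with 6 and 7, are near the middle.

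Growth factor receptors and their ligands differed between the lines. Of 23 receptor tyrosine kinases tested, 12 were higher in MDA-MB-231 (52.2%, beside 29.0% of all genes tested) and 9 in MDA-MB-436 (39.1%, near the 35.5% of all genes). Each line alone carried 3 of the 23 through the filter, which sets the direction of these. AXL was at 334, 162 and 172 RPKM against 58.6, 39.8 and 39.8 (2.19 ± 0.33), and GAS6, its ligand, at 58.7, 50.6 and 71.1 against 7.13, 5.69 and 5.49 (3.10 ± 0.34). EGFR was at 35.4, 34.6 and 37.8 RPKM against 17.1, 19.6 and 19.9. Its ligand AREG was higher in MDA-MB-231 (25.4, 32.7 and 28.8 RPKM against 1.48, 1.69 and 1.67), and EREG, another, in MDA-MB-436 (1.99, 1.72 and 1.78 against 24.9, 35.5 and 33.3). The collagen receptor DDR2 (-3.04), FLT4 and FGFR2 were higher in MDA-MB-436, where FGF2, a fibroblast growth factor, was at 21.2, 20.4 and 19.6 RPKM against at most 0.0900. MET was higher in MDA-MB-436 by -0.67. BMP4 and NOG, a bone morphogenetic protein and its antagonist noggin, were both far higher in MDA-MB-231, at 83.5, 64.4 and 84.4 RPKM against 0.251, 0.431 and 0.456 and at 62.4, 40.2 and 36.6 against 0.189, 0.191 and 0.119, while BMP7 was detected in MDA-MB-436 only. In the WNT and NOTCH list 9 of 24 were higher in MDA-MB-231 (37.5%) and 8 in MDA-MB-436 (33.3%), the latter near the share of all genes tested. Through MDA-MB-436 alone 4 of the 24 passed the filter, which sets their direction. The receptors FZD7 and FZD2 and the ligand JAG1 (16.1, 10.8 and 16.6 RPKM against 1.08, 1.27 and 1.36) were in MDA-MB-231 and WNT5A (-1.80) in MDA-MB-436.

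Of 28 genes of glycolysis and hypoxia tested, 9 were higher in MDA-MB-231 (32.1%, near the 29.0% of all genes tested) and 13 in MDA-MB-436 (46.4%, beside 35.5%). Only 1 of the 28 passed the filter through 1 line alone, MDA-MB-436, which sets its direction. The lactate transporters were opposed: SLC16A1 (MCT1) was at 0.180, 0.498 and 0.443 RPKM in MDA-MB-231 and 37.3, 41.2 and 40.3 in MDA-MB-436 (-4.89 ± 0.30, adjusted p = 5.04e-07), or 16 to 43 reads against 3330 to 3812, and SLC16A3 (MCT4) was at 60.8, 45.1 and 66.4 RPKM against 17.2, 9.05 and 11.2 (2.14 ± 0.35). The lactate dehydrogenase subunits followed the same split, LDHA with 1.12 and LDHB with -0.85. The glucose transporter SLC2A1 and VEGFA were higher in MDA-MB-231 (1.73 and 1.81), and TPI1, HK1 and GAPDH in MDA-MB-436 (-1.38, -1.04 and -0.87). The GAPDH call was lost without the shEZH2-labelled library of either line (adjusted p = 0.115 and 0.1). Among genes of xenobiotic and redox metabolism 7 of 23 were higher in MDA-MB-231 (30.4%, near the 29.0% of all genes tested), among them GPX3, a secreted glutathione peroxidase (38.5, 54.4 and 55.2 RPKM against 1.22, 0.954 and 1.46), and GSTM1, a glutathione transferase with 92 to 156 reads in MDA-MB-231 and 0 in all MDA-MB-436 libraries. In MDA-MB-436 10 were higher (43.5%, beside 35.5%), among them AKR1B1, aldose reductase (35.3, 69.6 and 65.5 RPKM against 263, 340 and 357), and HMOX1, haem oxygenase 1 (8.01, 10.1 and 7.30 against 31.7, 55.1 and 51.6). Among these 23 genes, 2 passed the filter through MDA-MB-231 alone and 1 through MDA-MB-436 alone, so their direction is set by it. GSTM1 has close relatives in its family, so its reads are uncertain.

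Of 39 cancer-testis genes listed only 11 passed the filter, 5 higher in each line (45.5%) and 1 not called. Of the 11, 8 passed the filter through 1 line alone, which sets their direction. SPANXC (61.1, 130 and 95.8 RPKM against 0.462, 0.156 and 0.145) and PAGE5 were in MDA-MB-231, and MAGEA10 (at most 0.0189 RPKM against 29.1, 35.8 and 32.9), MAGEA3 and PRAME (0 in all 3 MDA-MB-231 libraries against 2.97, 4.48 and 4.08) in MDA-MB-436. Of the 26 imprinted genes listed, 13 were tested. The line with the higher level was MDA-MB-231 for 3 (23.1%) and MDA-MB-436 for 5 (38.5%), and the share called in all, 61.5%, is near the 64.5% of all genes tested. Of the 13, 2 passed the filter through MDA-MB-231 alone and 4 through MDA-MB-436 alone, which sets the direction of these. The paternally expressed NDN (0.0309, 0 and 0.113 RPKM against 28.3, 24.3 and 23.6) and SNRPN (0 against 4.41, 5.42 and 5.33), both from one region of chromosome 15, were present in MDA-MB-436 only or nearly so. MEST was higher in MDA-MB-231 (1.32). Members of the MAGEA and SPANX families are near-identical copies whose reads the counting may have split.

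Housekeeping genes give a scale for these numbers. Of 20 genes commonly used as references, 13 were called, 65.0% beside 64.5% of all genes tested. ACTB, RPLP0, RAB7A, TFRC and TBP were not called, with adjusted p from 0.0726 to 0.900, and the called ones other than YWHAZ differed by -1.08 to 1.21. YWHAZ, a 14-3-3 protein often used as reference, stood out at 98.3, 77.3 and 78.4 RPKM against 8.45, 7.28 and 7.66 (3.28 ± 0.26, adjusted p = 1.21e-06).

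Calls were also unevenly spread over chromosomes. The median difference was 0.48 over 599 genes of chromosome 6, 0.33 over 731 of chromosome 17 and 0.29 over 354 of chromosome 20, and -0.50 over 615 of chromosome 7, -0.50 over 370 of chromosome 15, -0.40 over 424 of chromosome X, -0.38 over 529 of chromosome 9 and -0.36 over 534 of chromosome 16. On chromosome 6, 50.9% of genes were higher in MDA-MB-231 and 25.7% in MDA-MB-436, on chromosome 9 the shares were 14.4% and 50.9%, and on chromosome 16 they were 9.18% and 49.4%. Neighbouring genes can share a copy number, which was not measured here, so the genes of a chromosome are not independent. The HOXA cluster and EGFR on chromosome 7, CDKN2A, CDKN2B, MTAP, KLHL9 and FOCAD on chromosome 9, and NDN and SNRPN of chromosome 15, lie on chromosomes with a shifted median, and the part of that shift in their differences was not tested. EGFR was higher in MDA-MB-231 although its chromosome leaned to MDA-MB-436. Genes detected in 1 line only gathered in windows of 1 Mb, among them 7 genes of the HOXA region, 3 at CDKN2A and 4 around RENBP and BGN on the X chromosome in MDA-MB-436, and 3 of the HLA-DR region, 3 of the APOBEC3 region and 4 of a zinc finger gene region of chromosome 19 in MDA-MB-231.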

How the data were processed

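Total RNA of the 2 lines was sequenced, and the authors deposited RPKM values in 1 table of all 9 libraries, and 0 of its value columns were left unmapped. Alignment with STAR and counting with HTSeq on GRCh38 are named in the submitters' processing notes. For versions, annotation and strand setting the entry is: not given in the sources used here. Columns were assigned to line and treatment label by their headers. Values low enough to show single reads were whole multiples of 1 read within 0.05 in 100.0% of cases when multiplied by exon lengths of GENCODE release 29, which gave the read numbers; RPKM is not a count, so no count test was run. The release holds 92.5% of the identifiers with an equal version number.

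Genes that reached 1 RPKM in 3 or more of 6 libraries were fitted as log2(RPKM + 1) with limma 3.58.1 in R 4.3.3 (mean-variance trend, two-sided, Benjamini-Hochberg adjustment over 12452 genes), with line and treatment label as terms and 2 residual degrees of freedom. With 3 pairs, an exact sign-flip test could reach no p below 0.25. The pairing by label was checked across genes: deviations of libraries with the same label correlated at 0.398, 0.178 and 0.381, those with different labels at -0.368 to 0.169. Deviations within a line sum to 0, so these values are not independent. The GSK343-labelled MDA-MB-436 library correlated about equally with the MDA-MB-231 libraries labelled GSK343 (0.178) and shEZH2 (0.169). For that library the check does not tell these 2 labels apart. The script was tested on simulated data. Positions are GRCh38 from GENCODE. Promoters are from RefSeq, and the 4 printed were chosen by level, with chromosome 8 left out, after values were seen.

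The members and the gene lists were chosen with earlier results of these data known. Named genes are the 12 largest called differences in each direction, at most 4 members of each list by smallest p, members detected in 1 line only, EZH2, the tumour suppressors and their neighbours. Other names were chosen after their values were seen. Some genes that the rule names are not reported here. Alternatives were pseudocounts of 0.1 and 0.5, other filters, 2 rescalings, other moderation, no replicate block, all 9 libraries, each library left out, and averaging of like libraries, the last chosen after seeing the data.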

Additional observations from a re-analysis of the deposited data

How the results depend on the processing

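No gene that was called reversed its direction with a call in any alternative. Without the replicate block (treatment label) 7261 genes were called, 3274 higher in MDA-MB-231 and 3987 in MDA-MB-436, in place of 8034. Without 1 library there were 6290 to 8272 calls (2895 to 3603 higher in MDA-MB-231, 3395 to 4669 in MDA-MB-436; at least 4-fold, 394 to 417 and 378 to 431). Leaving out a label's library in MDA-MB-231 or in MDA-MB-436 gave the same difference, for EZH2 -0.413 without either shEZH2-labelled library. Such fits are therefore not separate checks, and each had 1 residual degree of freedom. Median-ratio rescaling moved the median difference to 0.01 and the share of calls toward MDA-MB-231 from 45% to 51.5%, so small differences depend on scale. A mean RPKM of at least 5 left 7384 genes and 4889 calls (2284 and 2605, with 209 at least 4-fold higher in MDA-MB-436), since fewer genes were tested. The 4-fold counts followed the scale: 757 and 882 with a pseudocount of 0.1, 628 in MDA-MB-436 with 0.5, and 673 and 788 after rescaling to a common sum; the cause of the last was not tested. Genes detected in MDA-MB-231 only numbered 82 with an upper limit of 0.05 RPKM and 199 with 0.2, and with 5 RPKM asked of the detecting line 30 in MDA-MB-231 and 58 in MDA-MB-436 were left. Among the genes named here, those that changed their call in some alternative were EZH2, MMP3, UBA52P6, ITM2B, CXCL1, CAAP1, PLAA, MED4, E2F1, CCNE2, CDK4, PKP3, KRT17, KRT18, IL6, EGR1, GAPDH and TBP. Levels under about 0.1 RPKM rest on a few reads.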
